A study of Chlamydomonas reinhardtii with 6 samples.

Results

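The genes described here are 8 nuclear genes of the green alga Chlamydomonas reinhardtii that encode enzymes of starch synthesis. They were chosen by name and identifier and not by a rule on their values, although earlier results of these data were known. The genes are STA6, STA1, STA2, STA3, SBE1, STA7, STA4 (also called PHOB) and PHOA. All 8 were found among the 17741 gene models of the deposited table, and all 8 belonged to the 12543 models that averaged 1 FPKM or more across the libraries and were tested. FPKM, fragments per kilobase of transcript scaled for the library by an option that is not given, is a level per length. It can therefore be compared between genes. Poly-A RNA had been sequenced from 3 cultures of strain CC-4532 with 1000 µM manganese and 3 cultures with 6 µM manganese, which the labels call the control. All 6 grew in Tris-acetate-phosphate medium at 24 °C in continuous light, in flasks of 1 L inoculated from a shared starter culture at 10000 cells per mL, and were harvested in mid-logarithmic growth at 3000000 cells per mL. Every culture was thus a culture of the same strain with acetate as a carbon source, and the replicates are separate flasks, so the p-values measure the spread between flasks that share an inoculum.

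Starch is the storage glucan of Chlamydomonas. It is made inside the chloroplast, in the stroma and as a sheath around the pyrenoid, and it accumulates in particular when cells have acetate but lack a nutrient. ADP-glucose pyrophosphorylase makes the sugar donor ADP-glucose, starch synthases use it to lengthen glucan chains, branching enzymes add branch points, isoamylase-type debranching enzymes trim misplaced branches so that the polymer can crystallise, and plastidial phosphorylases exchange glucosyl units with glucose 1-phosphate. The comparison asks how the transcripts of this pathway stand when manganese, a cofactor of photosystem II and of a superoxide dismutase, is supplied in large excess.

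No difference between 1000 µM and 6 µM manganese was detected for any of the 8 starch synthesis genes. By limma, fitted to all 12543 genes with p-values adjusted by Benjamini-Hochberg, 0 of 8 had an adjusted p under 0.05, and 0% of all tested genes did. At an unadjusted p under 0.05 the count was again 0 of 8, where 2.82% of all tested genes passed (1.08% higher and 1.75% lower at 1000 µM). In no member did the 3 cultures at 1000 µM all lie above or all below the 3 at 6 µM, an arrangement that 8.04% of the tested genes showed. The 95% intervals were narrow enough to bound each change. In the main fit, with all 6 libraries weighted equally and the values as deposited, the interval of each of the 8 genes included no change. Each also excluded changes of FPKM of 1.5-fold or more, up or down, a bound that was not fixed beforehand. For SBE1 the interval lay wholly below 0 under some alternatives. The 1.5-fold bound also failed for SBE1 under some alternatives, among them equal FPKM sums. These intervals are not adjusted for the number of genes.

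**Figure D1:**
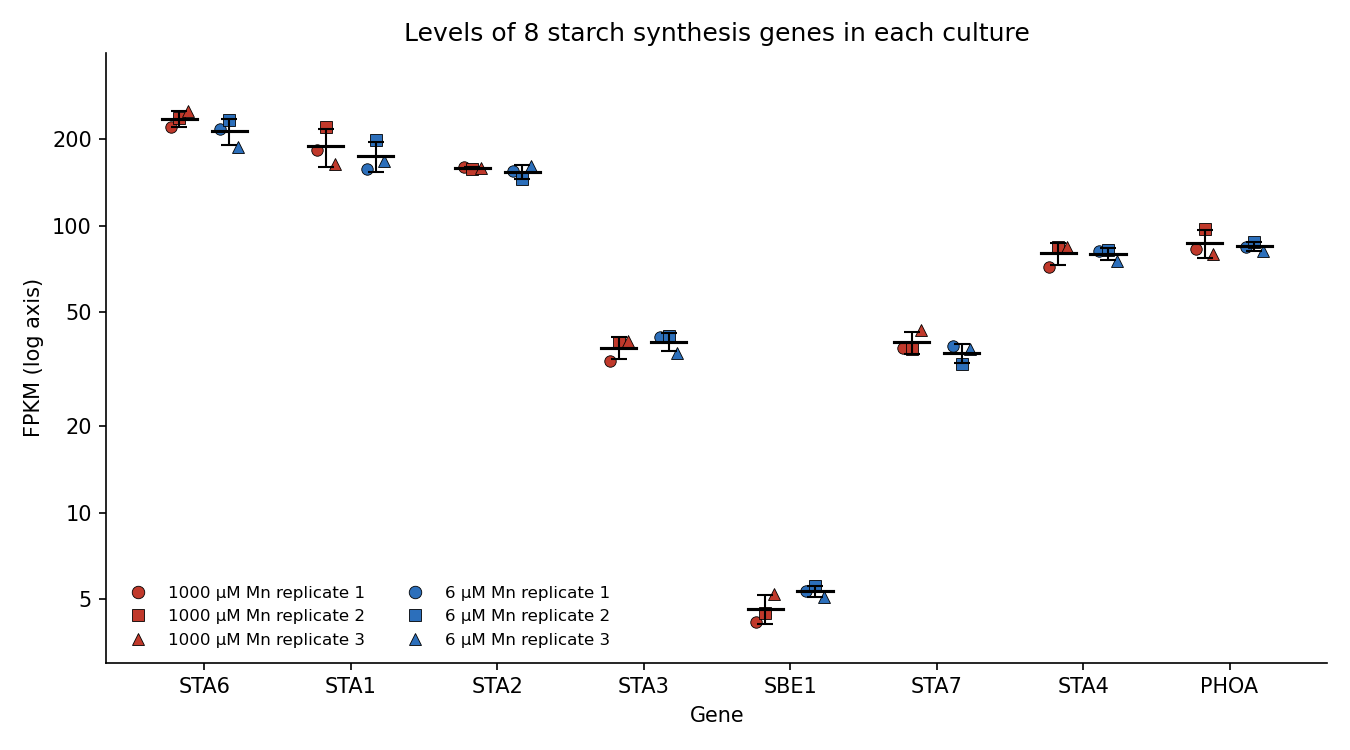
FPKM (log axis) of the 8 genes in each culture, with 1000 µM Mn in red on the left and 6 µM Mn in blue on the right of each gene. Symbols mark the replicates, long bars the means and error bars the SD (n = 3). The groups overlap for every gene, and SBE1, near 5 FPKM, lies far below the other 7.

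The members covered a wide range of levels, and the order of their means was the same at both manganese levels except for STA3 and STA7, which changed places. None was absent from the table, listed at 0 or under 1 FPKM in any library. Averaged over the 6 libraries, STA6 stood highest at 225 FPKM, followed by STA1 at 182 FPKM and STA2 at 157 FPKM, and these ranked 361, 422 and 479 among all 17741 gene models. PHOA averaged 85.8 FPKM and STA4 79.9 FPKM, at ranks 774 and 827. STA3 averaged 38.5 FPKM and STA7 37.7 FPKM, at ranks 1525 and 1552. SBE1 was the exception with 4.97 FPKM and rank 7182, so that 42.7% of the tested genes had a lower mean, against at least 87.6% for every other member. Along this order the ranges over the 6 libraries overlapped between STA6 and STA1, STA1 and STA2, PHOA and STA4, and STA3 and STA7, so these neighbours do not differ beyond their spread in that sense. Within single libraries, however, STA6 exceeded STA1, and STA1 exceeded STA2, in 6 of 6. PHOA exceeded STA4 in 5 of 6, and STA3 exceeded STA7 in 3 of 6. The ranges of STA2 and PHOA, of STA4 and STA3, and of STA7 and SBE1 did not touch, with means 1.83, 2.08 and 7.58 times apart.

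A small number of library properties bear on these values. The absolute depth is unknown, since FPKM does not keep it. The steps between low values gave a relative number of reads per FPKM of 1.04, 0.717 and 0.853 in 1000 µM replicates 1, 2 and 3, and of 1, 1.09 and 1.13 in 6 µM replicates 1, 2 and 3. These are rough estimates relative to 6 µM replicate 1. In each other library only 13.7% to 16.4% of the low genes compared lay at the ratio used. The FPKM sums of the libraries ran from 629620 to 767912. Each library's median-of-ratios factor was its median ratio to the gene's geometric mean over libraries, among genes above 0 in every library. Rescaled to a geometric mean of 1, these factors lay between 0.9985 and 1.004. The deposited values were thus already on nearly 1 median-of-ratios scale, while their sums differed. On the first principal component, which held 57.8% of the variance of all tested genes, 1000 µM replicate 3 and 6 µM replicate 1 stood apart from the other 4 libraries. Results are therefore also given without both of them.

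The pathway's first committed step is made by STA6, the small, catalytic subunit of ADP-glucose pyrophosphorylase, without which Chlamydomonas makes almost no starch, and by STA1, its large, regulatory subunit. STA6 (Cre03.g188250.v5.5, chromosome 3 from 5741796 to 5746698) had 220.4, 237 and 250.2 FPKM in 1000 µM replicates 1, 2 and 3, against 218, 234 and 189 FPKM in 6 µM replicates 1, 2 and 3. The groups overlapped, with 6 µM replicate 3 the lowest and 1000 µM replicate 3 the highest culture. Its means were 236 ± 14.9 FPKM with 1000 µM and 213 ± 22.8 FPKM with 6 µM manganese (SD, n = 3 each). The difference of log2(FPKM + 1), 1000 µM minus 6 µM, was 0.15 with a standard error of 0.12 and a 95% interval of -0.13 to 0.42 (limma adjusted p = 1.00). At the level of the 6 µM cultures this interval corresponds to between 0.915 and 1.34 times the FPKM.

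STA1 (Cre13.g567950.v5.5, chromosome 13 from 917627 to 924349) had 183, 220.3 and 164 FPKM at 1000 µM and 158, 199 and 169 FPKM at 6 µM, in replicates 1, 2 and 3 of each. The replicates numbered 2 were the highest at both manganese levels, and the groups overlapped over most of their range. STA1 averaged 189 ± 28.8 FPKM with 1000 µM and 175 ± 21.1 FPKM with 6 µM manganese (SD, n = 3 each). Its log2 difference of 0.11 had the widest interval of the 8, -0.23 to 0.44 (SE 0.15, limma adjusted p = 1.00), or 0.854 to 1.36 times the FPKM. Among the members it also varied most between flasks of a group. Its pooled within-group SD of 0.19 on the log2(FPKM + 1) scale was larger than that of 73.7% of the tested genes. Without 1000 µM replicate 2 the log2 difference was -0.0092, so its sign rested on that culture.

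The 2 subunits are parts of 1 enzyme, and their relative transcript level was similar at both manganese levels. STA1 had 0.831, 0.930 and 0.654 times the FPKM of STA6 at 1000 µM, against 0.726, 0.850 and 0.893 times at 6 µM, in replicates 1, 2 and 3. The lowest ratio belonged to 1000 µM replicate 3, where STA6 was at its highest and STA1 was low. The mean ratio was 0.805 ± 0.140 at 1000 µM and 0.823 ± 0.0868 at 6 µM (SD, n = 3 each), a difference smaller than either SD.

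Both genes belong to the 677 tested genes that averaged 100 FPKM or more, as does STA2. That class as a whole had a median log2 difference of 0.089, against 0.011 for all tested genes, beside differences of 0.15 for STA6 and 0.11 for STA1. After scaling all libraries to an equal FPKM sum, the median of the class was 0.0013 and that of all tested genes -0.061. The log2 differences were then 0.060 for STA6, 0.018 for STA1 and -0.042 for STA2.

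**Figure D2:**
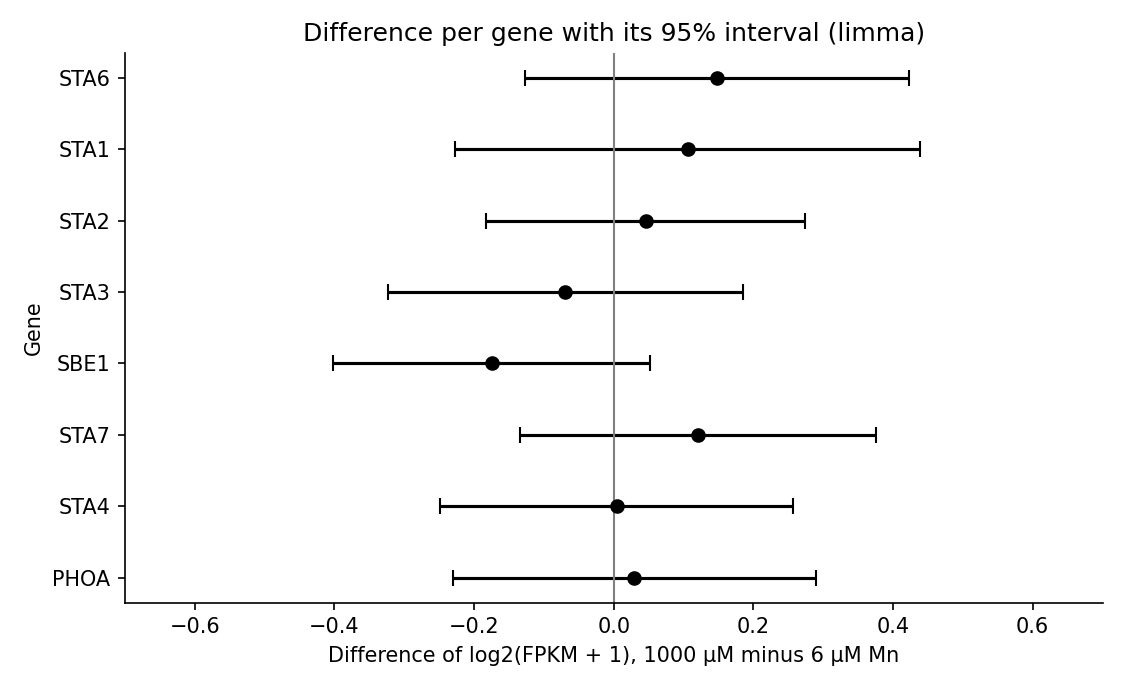
Difference of log2(FPKM + 1), 1000 µM minus 6 µM manganese, for each of the 8 genes (points) with its 95% interval from limma (bars); the grey line marks no difference. All 8 intervals cross it, from SBE1 at -0.17 to STA6 at 0.15.

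Chain elongation was represented by 2 starch synthases. STA2 is the granule-bound enzyme, which makes amylose and acts inside the growing granule, and STA3 is a soluble enzyme that lengthens the chains of amylopectin. STA2 (Cre17.g721500.v5.5, chromosome 17 from 3129587 to 3134098) was the steadiest of the 8 genes. It had 160.03, 158 and 159 FPKM in 1000 µM replicates 1, 2 and 3, against 155, 146 and 162 FPKM in 6 µM replicates 1, 2 and 3. All 3 values at 1000 µM fell inside the range of the 6 µM cultures. Its highest culture was only 1.11 times its lowest, and its within-group SD on the log2 scale, 0.054, was larger than that of 5.68% of the tested genes. STA2 averaged 159 ± 1.02 FPKM with 1000 µM and 154 ± 8.18 FPKM with 6 µM manganese (SD, n = 3 each), with a log2 difference of 0.046 and a 95% interval of -0.18 to 0.27 (limma adjusted p = 1.00).

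STA3 (Cre06.g282000.v5.5, chromosome 6 from 5212616 to 5224459) had 33.8, 39.3 and 39.5 FPKM in the 1000 µM cultures, against 40.9, 41.2 and 36.1 FPKM in the 6 µM cultures. The lowest value was that of 1000 µM replicate 1, while the other two cultures at 1000 µM lay inside the 6 µM range. Means were 37.5 ± 3.24 FPKM with 1000 µM and 39.4 ± 2.84 FPKM with 6 µM manganese (SD, n = 3 each). The log2 difference was -0.069 with a 95% interval of -0.32 to 0.18 (limma adjusted p = 1.00), which is 0.794 to 1.14 times the FPKM. Without 1000 µM replicate 1 it was 0.0025. STA2 had 4.74, 4.02 and 4.03 times the FPKM of STA3 at 1000 µM and 3.79, 3.54 and 4.48 times at 6 µM, so the granule-bound enzyme's transcript was several-fold more abundant in every culture, and the groups of ratios overlapped.

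Branching and debranching give amylopectin its clustered structure. SBE1 encodes a starch branching enzyme, and STA7 the isoamylase-type debranching enzyme whose loss makes Chlamydomonas accumulate soluble phytoglycogen in place of starch. SBE1 (Cre06.g289850.v5.5, chromosome 6 from 6089722 to 6100307) had 4.16, 4.48 and 5.21 FPKM in 1000 µM replicates 1, 2 and 3, against 5.32, 5.57 and 5.08 FPKM in 6 µM replicates 1, 2 and 3. The groups overlapped through 1 pair of cultures, since 1000 µM replicate 3 exceeded 6 µM replicate 3. SBE1 averaged 4.61 ± 0.541 FPKM with 1000 µM and 5.32 ± 0.242 FPKM with 6 µM manganese (SD, n = 3 each). This gave the largest difference of the 8 in size, -0.17 on the log2(FPKM + 1) scale, with a standard error of 0.099 and a 95% interval of -0.40 to 0.05 (limma adjusted p = 1.00). At the 6 µM level the interval runs from 0.712 to 1.04 times the FPKM. Because SBE1 is low, adding 1 to each value shrinks its difference, which was -0.21 when 0.1 was added in place of 1.

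The size of the SBE1 difference depended on which cultures entered and on how they were weighted, while its sign did not. Without 1000 µM replicate 3 it was -0.25 with a 95% interval of -0.47 to -0.03 (limma adjusted p = 0.999), and without both libraries that stood apart it was again -0.25, with an interval of -0.48 to -0.02 (limma adjusted p = 0.928). In both settings SBE1 was below an unadjusted p of 0.05. So were 460 and 638 of all tested genes in these settings, against 354 of 12543 in the main fit. With all 6 libraries kept but weighted by their estimated quality, the difference was -0.26 with a 95% interval of -0.43 to -0.095 (limma unadjusted p = 0.00576, adjusted p = 0.292). Under these weights 1272 of all tested genes were below an unadjusted p of 0.05. Between the libraries that stood apart, 1000 µM replicate 3 minus 6 µM replicate 1, the SBE1 difference was -0.024. That is 1 culture against 1, not paired by design, so it has no spread to be judged by. Without 1000 µM replicate 1 it was -0.12 (limma adjusted p = 0.999). Over all 16 alternatives that tested it, its adjusted p ran from 0.292 to 1.00. The lower end of its interval reached -0.52 after scaling all libraries to an equal FPKM sum. A lower level of SBE1 at 1000 µM was therefore not established, and a decrease of the size of its lower bound was not excluded.

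STA7 (Cre03.g155001.v5.5, chromosome 3 from 1885221 to 1896321) had 37.4, 37.2 and 43.3 FPKM at 1000 µM and 38.1, 32.9 and 37.2 FPKM at 6 µM, in replicates 1, 2 and 3. Both the highest culture, 1000 µM replicate 3, and the lowest, 6 µM replicate 2, stood off from 4 cultures between 37.2 and 38.1 FPKM. Its means of 39.3 ± 3.45 FPKM with 1000 µM and 36.04 ± 2.77 FPKM with 6 µM manganese (SD, n = 3 each) gave a log2 difference of 0.12 with a 95% interval of -0.13 to 0.37 (limma adjusted p = 1.00), or 0.908 to 1.31 times the FPKM.

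The phosphorylases STA4 and PHOA are a pair of plastidial isoforms. Loss of STA4 in Chlamydomonas lowers starch and disturbs the granules, which ties that phosphorylase to synthesis. STA4 (Cre12.g552200.v5.5, chromosome 12 from 7956582 to 7966526) had 71.9, 84.1 and 84.2 FPKM in the 1000 µM cultures, against 81.8, 82.1 and 75.1 FPKM in the 6 µM cultures. The 1000 µM group held both the lowest and the highest culture, so the 6 µM values lay wholly inside its range. The means were nearly equal, 80.1 ± 7.11 FPKM with 1000 µM and 79.7 ± 3.95 FPKM with 6 µM manganese (SD, n = 3 each), with a log2 difference of 0.0042 and a 95% interval of -0.25 to 0.26 (limma adjusted p = 1.00). This interval is 0.840 to 1.197 times the FPKM.

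PHOA (Cre07.g336950.v5.5, chromosome 7 from 3621954 to 3629865) had 83.1, 97.7 and 79.7 FPKM at 1000 µM and 84.3, 88.1 and 81.8 FPKM at 6 µM, in replicates 1, 2 and 3. As with STA4, the 1000 µM cultures enclosed the 6 µM cultures. PHOA averaged 86.8 ± 9.57 FPKM with 1000 µM and 84.7 ± 3.14 FPKM with 6 µM manganese (SD, n = 3 each), with a log2 difference of 0.030 and a 95% interval of -0.23 to 0.29 (limma adjusted p = 1.00). The isoforms were present at similar levels in every culture. PHOA had 1.16, 1.16 and 0.946 times the FPKM of STA4 at 1000 µM, against 1.03, 1.07 and 1.09 times at 6 µM.

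**Figure D3:**
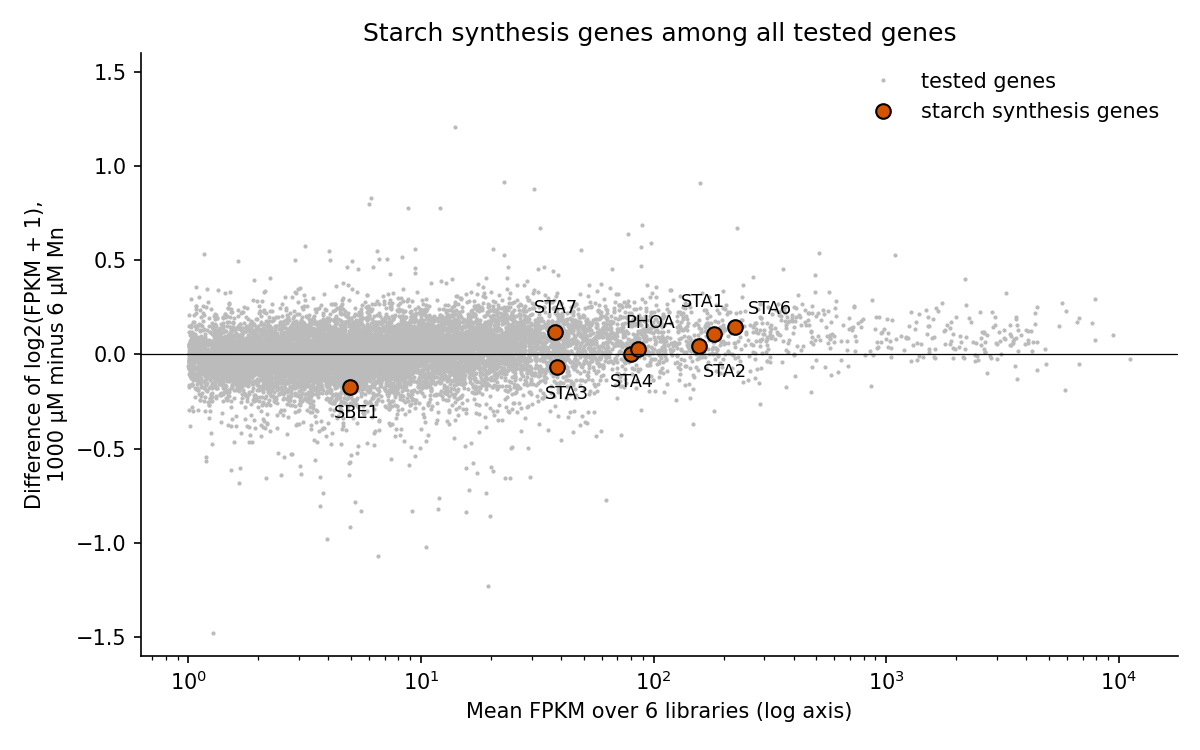
Difference of log2(FPKM + 1), 1000 µM minus 6 µM manganese, against the mean FPKM over the 6 libraries (log axis), for 12543 tested genes (grey) and the 8 starch synthesis genes (orange). The members lie within the cloud of all genes, between -0.17 and 0.15.

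Seen as a list, the starch synthesis genes had differences of a size common among the tested genes. The median log2 difference was 0.038 over the 8 members and 0.011 over all tested genes, and the median absolute difference was 0.088 over the members and 0.074 over all tested genes. The difference was positive in 6 members and negative in 2, STA3 and SBE1, while 53.7% of all tested genes had a positive one. The signs of STA2, STA4 and PHOA turned negative after scaling all libraries to an equal FPKM sum and after quantile normalization, so the 6 to 2 division depends on the scaling. Of all tested genes, 86.1% lay within the largest absolute difference of a member, that of SBE1. The half-width of the 95% interval ran from 0.23 to 0.33 for the members, against a median of 0.26 for all tested genes.

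Together the 8 genes held 794, 878 and 825 FPKM in 1000 µM replicates 1, 2 and 3, against 781, 828 and 755 FPKM in 6 µM replicates 1, 2 and 3. The mean sum was 832 ± 42.6 FPKM with 1000 µM and 788 ± 37.1 FPKM with 6 µM manganese (SD, n = 3 each). As a share of each library's FPKM the groups were closer, 0.116% ± 0.0034 at 1000 µM and 0.117% ± 0.0069 at 6 µM (SD, n = 3 each). STA6, STA1 and STA2 made up 70.2% ± 0.770 of the sum at 1000 µM and 68.9% ± 0.942 at 6 µM (SD, n = 3 each), and SBE1 made up 0.555% ± 0.0668 at 1000 µM and 0.675% ± 0.0044 at 6 µM.

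**Figure D4:**
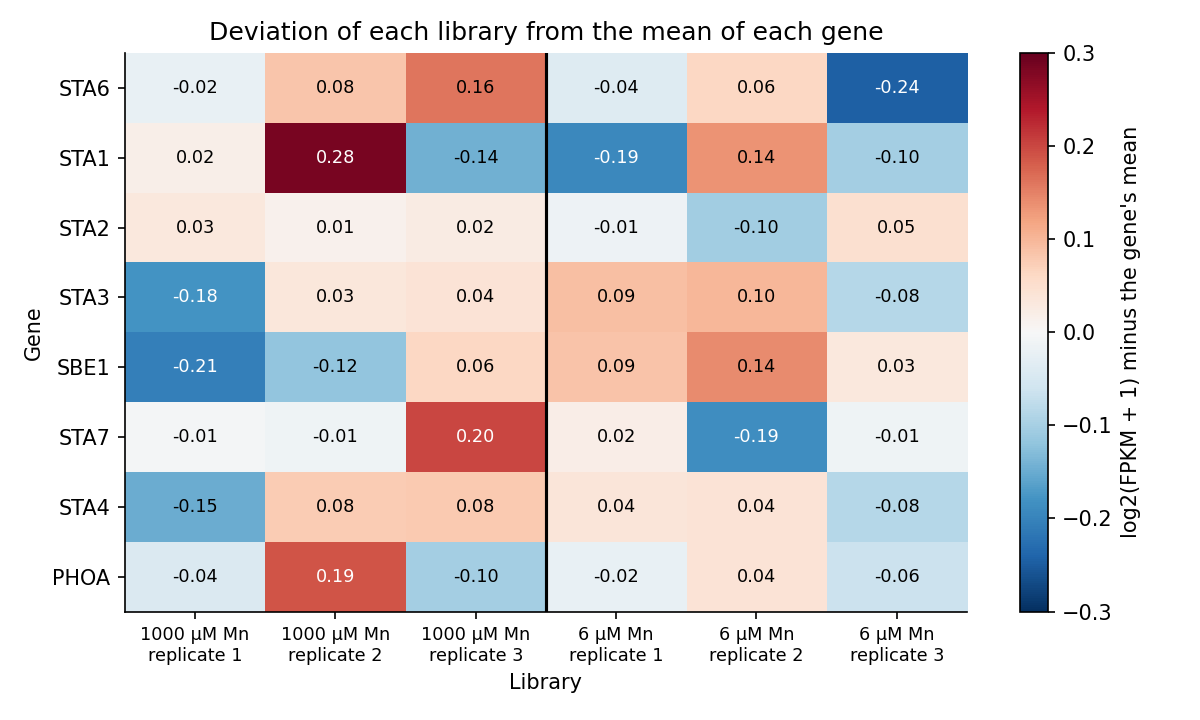
Deviation of log2(FPKM + 1) in each library from the gene's mean over the 6 libraries, with 1000 µM Mn left of the black line and 6 µM Mn right of it (red above the mean, blue below). No gene is red in all libraries of one group and blue in all libraries of the other, and STA1 spans the widest range, from -0.19 to 0.28.

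The genes did not move as 1 block across the cultures. In 1000 µM replicate 1 the deviation from the gene's mean was -0.21 for SBE1, -0.18 for STA3 and -0.15 for STA4, but between -0.04 and 0.03 for the other 5. In 1000 µM replicate 2 STA1 stood at 0.28 and PHOA at 0.19. In 1000 µM replicate 3 STA7 stood at 0.20 and STA6 at 0.16, while STA1 and PHOA were at -0.14 and -0.10. Thus STA1 and PHOA were high and low in the same 1000 µM cultures, and STA3 and STA4 shared their low value in 1000 µM replicate 1. In 6 µM replicate 3 the deviation of STA6 was -0.24, and 6 of the 8 genes were below their own mean there. The median deviation of all tested genes lay between -0.0085 and 0.015 in every library.

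The likeness of 2 patterns was measured as the root mean square difference of their centred log2(FPKM + 1) values over the 6 libraries, as a description with no test. The closest pair among the members was STA3 and STA4, at 0.041. Of the genes outside the list, 0.160% were closer to STA3 than STA4 was, and 0.327% were closer to STA4 than STA3 was. This pair was picked out by its small distance. For each other member, the share of outside genes closer than its nearest member ran from 2.15% (SBE1) to 18.5% (STA2). Among all tested genes outside the list, the closest pattern to STA6 was that of Cre09.g400500.v5.5 at 0.031, and the closest to STA1 was that of Cre04.g228450.v5.5 at 0.032. For STA2 and STA3 they were Cre03.g158500.v5.5 at 0.015 and Cre17.g697650.v5.5 at 0.021, and for SBE1 and STA7 Cre16.g677000.v5.5 at 0.021 and Cre03.g164650.v5.5 at 0.019. For STA4 it was Cre10.g450500.v5.5 at 0.020 and for PHOA Cre06.g278585.v5.5 at 0.017. Every member had a gene outside the list within 0.032. Each of these is the smallest distance among all tested genes outside the list, and the same was not computed for other genes. The members themselves lay only 0.050 (STA2) to 0.17 (STA1) from a flat pattern.

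**Figure D5:**
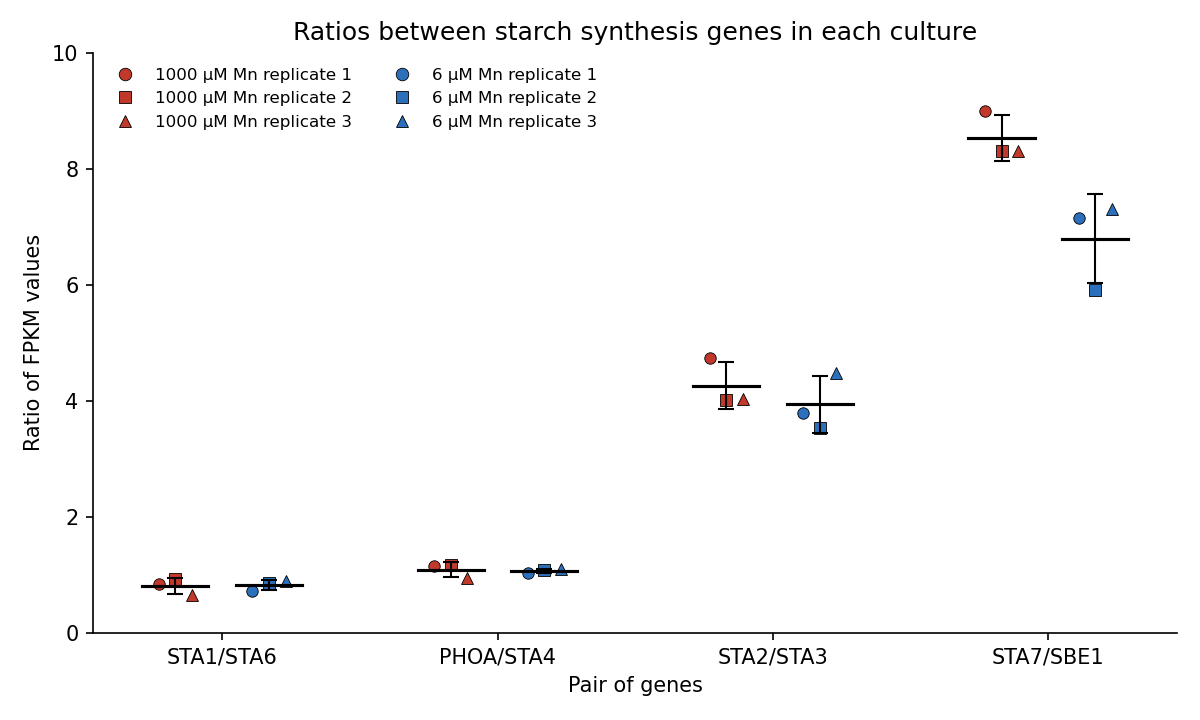
Ratio of the FPKM of one gene to that of another in each culture, with 1000 µM Mn in red on the left and 6 µM Mn in blue on the right of each pair. Symbols mark the replicates, long bars the means and error bars the SD (n = 3). The ratio of STA7 to SBE1 lies between 8.30 and 8.999 at 1000 µM and between 5.91 and 7.31 at 6 µM, and the other 3 pairs overlap.

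Ratios between members do not depend on the scaling of a library by 1 factor. All 28 pairs were examined, and for 5 of them (17.9%) the 3 ratios at 1000 µM all lay on one side of the 3 at 6 µM, an arrangement found for 8.36% of all pairs of tested genes above 0 in every library. SBE1 took part in 3 of the 5, so the pairs are not independent of each other. STA7 had 8.999, 8.30 and 8.30 times the FPKM of SBE1 at 1000 µM, against 7.16, 5.91 and 7.31 times at 6 µM, with means of 8.53 ± 0.403 and 6.79 ± 0.772 (SD, n = 3 each). STA6 had 48.01 to 53.05 times the FPKM of SBE1 at 1000 µM and 37.1 to 42.0 times at 6 µM. SBE1 had 0.0532 to 0.0619 times the FPKM of STA4 at 1000 µM and 0.0650 to 0.0678 times at 6 µM. The remaining pairs were STA6 to STA3, with 6.02 to 6.52 at 1000 µM and 5.22 to 5.67 at 6 µM, and STA3 to STA4, with 0.467 to 0.470 at 1000 µM and 0.481 to 0.502 at 6 µM. These 5 pairs were picked out by their values, so no test is given for them. With 3 cultures against 3, an exact two-sided permutation test of any single ratio cannot go below p = 0.10.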

How the data were processed

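Per the submitters' processing notes, CASAVA, STAR and Cuffdiff 2.2.1 were used. The authors' table holds an FPKM value for each gene model in each library. Settings, genome build, strand and normalization option: not given in the sources used here, so gene models that share reads with similar or overlapping genes are uncertain. Columns were assigned by the manganese level and replicate number in the titles. The members, lists and tests were chosen with earlier results of these data known. Symbols come from the list of members. The RefSeq gene table of assembly Chlamydomonas_reinhardtii_v5.5 gave the positions, with 17738 of 17741 identifiers found by locus tag, and holds 0 symbols beyond locus tags and no product names, so further starch genes could not be listed. Protein relatives were not analysed here.

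Values were transformed to log2(FPKM + 1), which understates differences of low genes. Genes averaging 1 FPKM or more across the 6 libraries entered limma 3.58.1 under R 4.3.3 (lmFit, eBayes with a trend, two-sided), and p-values were adjusted by Benjamini-Hochberg for 12543 genes at a threshold of 0.05. Intervals are at 95%. The procedure was tested on simulated data with independent noise per gene and changes much larger than any member difference. That test therefore does not bear on the members or on libraries that stand apart. Folds of FPKM were read from the interval at the mean level of the 6 µM cultures. Relative depth came from the most frequent ratio of low values between libraries, and no count model was run. All 8 members were named, with the 1 gene outside the list nearest in pattern to each. Figures used matplotlib 3.10.9 (Python 3.11.15). Alternatives were pseudocounts, filters, scalings, a replicate block, eBayes without a trend, quality weights and leaving out libraries. The ratios beyond STA1 to STA6 and PHOA to STA4, and all alternatives for ratios, were added later.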

Additional observations from a re-analysis of the deposited data

How the results depend on the processing

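In all 17 alternatives 0 of the tested members had an adjusted p under 0.05 (limma adjusted p from 0.292 to 1.00). SBE1 was not tested at a minimum mean of 5 FPKM. Members below an unadjusted p of 0.05 numbered 0 as reported, 1 with library quality weights (SBE1, log2 difference -0.26, limma adjusted p = 0.292), 1 without both libraries that stood apart (SBE1), and 0 to 1 when single libraries were omitted (SBE1, without 1000 µM replicate 3). The settings that counted SBE1 also put more of all tested genes below it, in turn 1272, 638 and 460. As reported, 354 of 12543 (2.82%) were below it. In the whole table the count at an adjusted p under 0.05 was 0 as reported, 2 with equal FPKM sums, 26 with quality weights, 3 without both libraries, and 0 to 2 when single libraries were omitted (2 without 6 µM replicate 1, 1 without 1000 µM replicate 3). Below an unadjusted p of 0.05 there were 354 as reported, 618 unfiltered, 172 at a minimum of 5 FPKM, 1272 with quality weights and 638 without both libraries. Their division into 135 higher and 219 lower became 37 and 493 with equal sums. The deviations of same-numbered libraries correlated across genes with r of -0.40, 0.51 and -0.50 for replicates 1, 2 and 3. The numbers were therefore not taken as pairs. With a replicate block 0 genes and 0 members passed, and 306 genes lay below an unadjusted p of 0.05.

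Of 135 log2 differences of members under the alternatives, 121 kept their sign and 14 reversed, all of them smaller in size than their standard error. With equal FPKM sums STA2 was at -0.042, STA4 at -0.083 and PHOA at -0.058, and after quantile normalization they were at -0.048, -0.081 and -0.046. STA4 was also at -0.089 with quality weights and -0.014 without both libraries. When single libraries were omitted, STA1 ran from -0.0092 to 0.20, STA3 from -0.13 to 0.0025, STA4 from -0.037 to 0.079 and PHOA from -0.057 to 0.088. The values below 0 for STA1 and PHOA came without 1000 µM replicate 2, the value above 0 for STA3 without 1000 µM replicate 1. STA6, STA7 and SBE1 kept their sign in every alternative that tested them. The cause was not tested. The log2(FPKM + 1) difference of STA7 minus that of SBE1 was 0.29 in the main fit and lay between 0.20 and 0.35 under the alternatives. It was 0.33 when 0.1 was added in place of 1. Unlike a plain ratio of FPKM, this value depends on the added constant and, slightly, on the scaling. The unknown depth limits what can be said of SBE1, the lowest member.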
